A study of Mus musculus with 18 samples.

Results

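The response of colon crypt epithelial cells to lifelong microbes was compared between the genotype labels WT and Ern2-/-. The measure was the interaction, that is, the difference between conventionally raised (CONV) and germ-free (GF) mice in the libraries labelled Ern2-/- minus the same difference in WT, on a log2 scale. A value below 0 means that CONV minus GF was less positive, or more negative, under the Ern2-/- label. It rested on 12 of the 18 RNA-Seq libraries of the series, 3 each of GF-WT, CONV-WT, GF-Ern2-/- and CONV-Ern2-/-. Members were the genes that this one fit could test, 13027 of the 24047 in the table. All mice were C57BL/6 by label, and the CONV mice were specific-pathogen free and had therefore carried a microbiota for life. Per the study's methods, the germ-free colonies were rederived and kept in isolators, and crypts were released from the colon with EDTA. GF and CONV mice were thus housed and bred apart, so microbes and other differences between the colonies cannot be told apart. The labels gave no age and did not say whether replicates came from separate mice. By the sex patterns given below, CONV-WT and GF-Ern2-/- each held libraries from more than 1 mouse. The p-values measure only the spread between these libraries, which may be partly technical, or wholly so in GF-WT and CONV-Ern2-/-. The other 6 libraries, labelled COLONIZED, came from germ-free mice of both genotypes that were examined 14 days after a cecal microbiota was given, and served only as a comparison.

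Ern2 encodes ERN2 (IRE1β), a sensor of unfolded proteins in the endoplasmic reticulum (ER) that is found in mucosal epithelium and, like its widely expressed relative ERN1, splices Xbp1 mRNA. XBP1 is a transcription factor that enlarges the ER and its secretory machinery. Goblet cells, which make and release the mucus of the colon, depend on that machinery, and microbes in the lumen are known to alter the genes they express.

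The targeted gene was examined first. The normalized Ern2 count, that is, the count divided by the library's size factor, was 2318, 1719 and 2186 in GF-WT and 2789.6, 2768 and 1879 in CONV-WT. It was 2585, 346 and 3011 in GF-Ern2-/- and 893, 1454 and 1335 in CONV-Ern2-/-. GF-Ern2-/- replicates 1 and 3 thus lay above all GF-WT libraries, against their label, and no library labelled Ern2-/- lacked Ern2 counts. A gene-level count cannot show whether the reads came from the deleted part, so genotype names below are those of the labels. Library totals ran from about 5865620 to 23154500 counts, with GF-WT the deepest and CONV-Ern2-/- holding the shallowest library. Counts of Y-linked genes exceeded Xist in 0 of 3 GF-WT, 1 of 3 CONV-WT, 2 of 3 GF-Ern2-/- and 3 of 3 CONV-Ern2-/- libraries, so sex was not balanced. CONV-WT replicate 3 stood apart from replicates 1 and 2, with a Muc2 count of 22678 beside 200998 and 173497. GF-Ern2-/- replicate 2 had the highest sum of 13 small intestine genes, 23691.5 beside 549 to 7869 in the other libraries. All 16 colon epithelium markers had counts in all 12 libraries.

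With DESeq2 at an adjusted p under 0.01, 23 of 13027 genes (0.177%) differed in their response between the genotype labels, 7 (0.0537%) with an interaction above 0 and 16 (0.123%) below. Of the 16, 3 were the Y-linked genes Uty, Kdm5d and Ddx3y. The remaining 20 genes comprised 13 below 0 and 7 above 0. They included secreted proteins of goblet cells (Itln1, Retnlb), the secretory lineage repressor Gfi1, lipid-digesting proteins (Pnliprp2, Clps), and, in the other direction, the acute phase protein Saa1, the IL-22 receptor subunit Il22ra1 and the immune checkpoint ligand Cd274. The quasi-likelihood test of edgeR called 0 of 12900 genes, with 957 at an unadjusted p under 0.05 and a smallest adjusted p of 0.139, and limma-voom called 0 with 970. The DESeq2 calls therefore rest on 1 tool. All 20 genes had the same sign with each of the other tools. These use the same counts from which the genes were chosen, so the shared sign is no support for the calls. At an unadjusted p under 0.05, DESeq2 found 1136 genes (8.72%), of which 703 (5.4%) were below 0 and 433 (3.32%) above. The median interaction over all genes tested was -0.02.

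**Figure D1:**
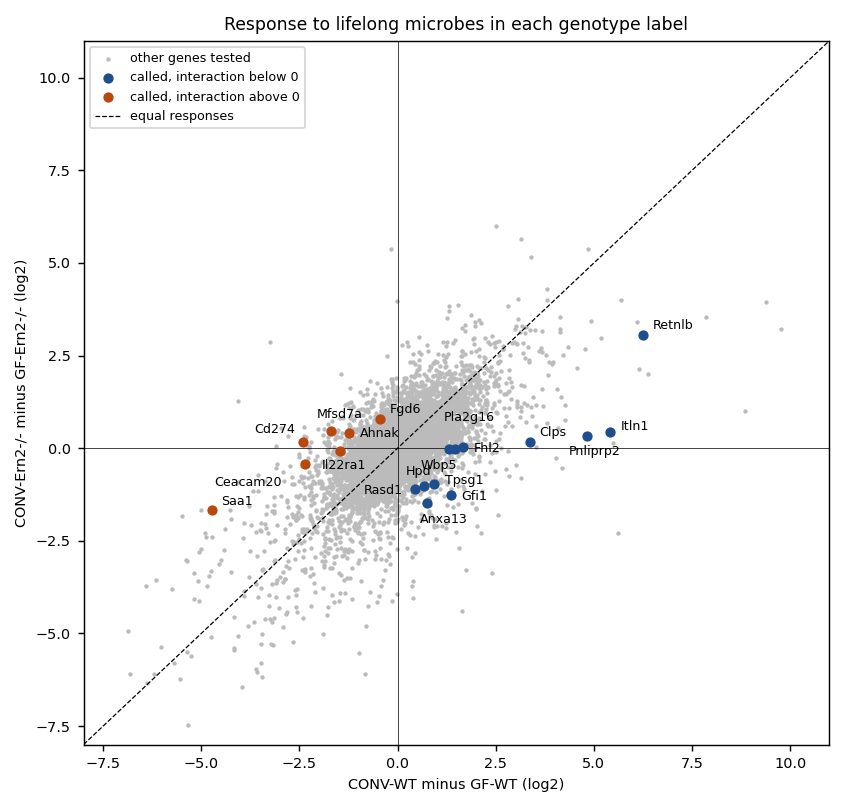
Each point is a gene tested in the interaction, with CONV minus GF in WT on the x axis and in the libraries labelled Ern2-/- on the y axis (both log2, Xist, Tsix and 4 Y-linked genes not drawn). The 12 called genes drawn below the line of equal responses (blue) reach a WT response of 6.26 for Retnlb, and the 7 above it (orange) reach -4.73 for Saa1, while 6 genes lay outside the axes.

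Most of the 20 genes passed the test of CONV against GF in WT, and fewer under the Ern2-/- label. The difference CONV minus GF passed the test in WT for 9 of the 13 genes below 0, all upward, where 4.76% of all 14378 genes rose. It passed upward under the Ern2-/- label for 1 of them and downward for 4, where 1.44% and 2.68% of all 14040 genes rose and fell. Of the 7 genes above 0, 6 fell in WT (4.37% of all genes) and 1 passed the test under the Ern2-/- label. Across all genes, 1312 (9.13%) passed in WT and 578 (4.12%) under the Ern2-/- label, and edgeR called 320 and 36. No p was taken from these counts, because the interaction is the difference of both responses. Of the genes of position along the gut, 2 of 17 tested fell and 0 rose in WT (median -0.04). Under the Ern2-/- label 1 of 15 rose and 1 fell (median -0.05), beside the shares of all genes above. Small intestine genes had lower medians. In WT 2 of 10 tested fell and 0 rose (median -2.24), and under the Ern2-/- label 3 of 9 fell and 0 rose (median -3.23), beside the same shares. Hoxd13, a homeobox gene of the hindgut chosen after its values were seen, fell under both labels and had 67.1, 262 and 119 counts in GF-WT and 287, 242 and 39.5 in GF-Ern2-/-, but 1.70, 0 and 0 in CONV-WT and 0 in all CONV-Ern2-/- libraries. The sum of 19 position genes was 9719 to 14779 in GF and 8646 to 9682 in CONV libraries. None of the 14 tested was called in the interaction, with a median of 0.00, and the part of the sampled position in the responses was not tested.

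**Figure D2:**
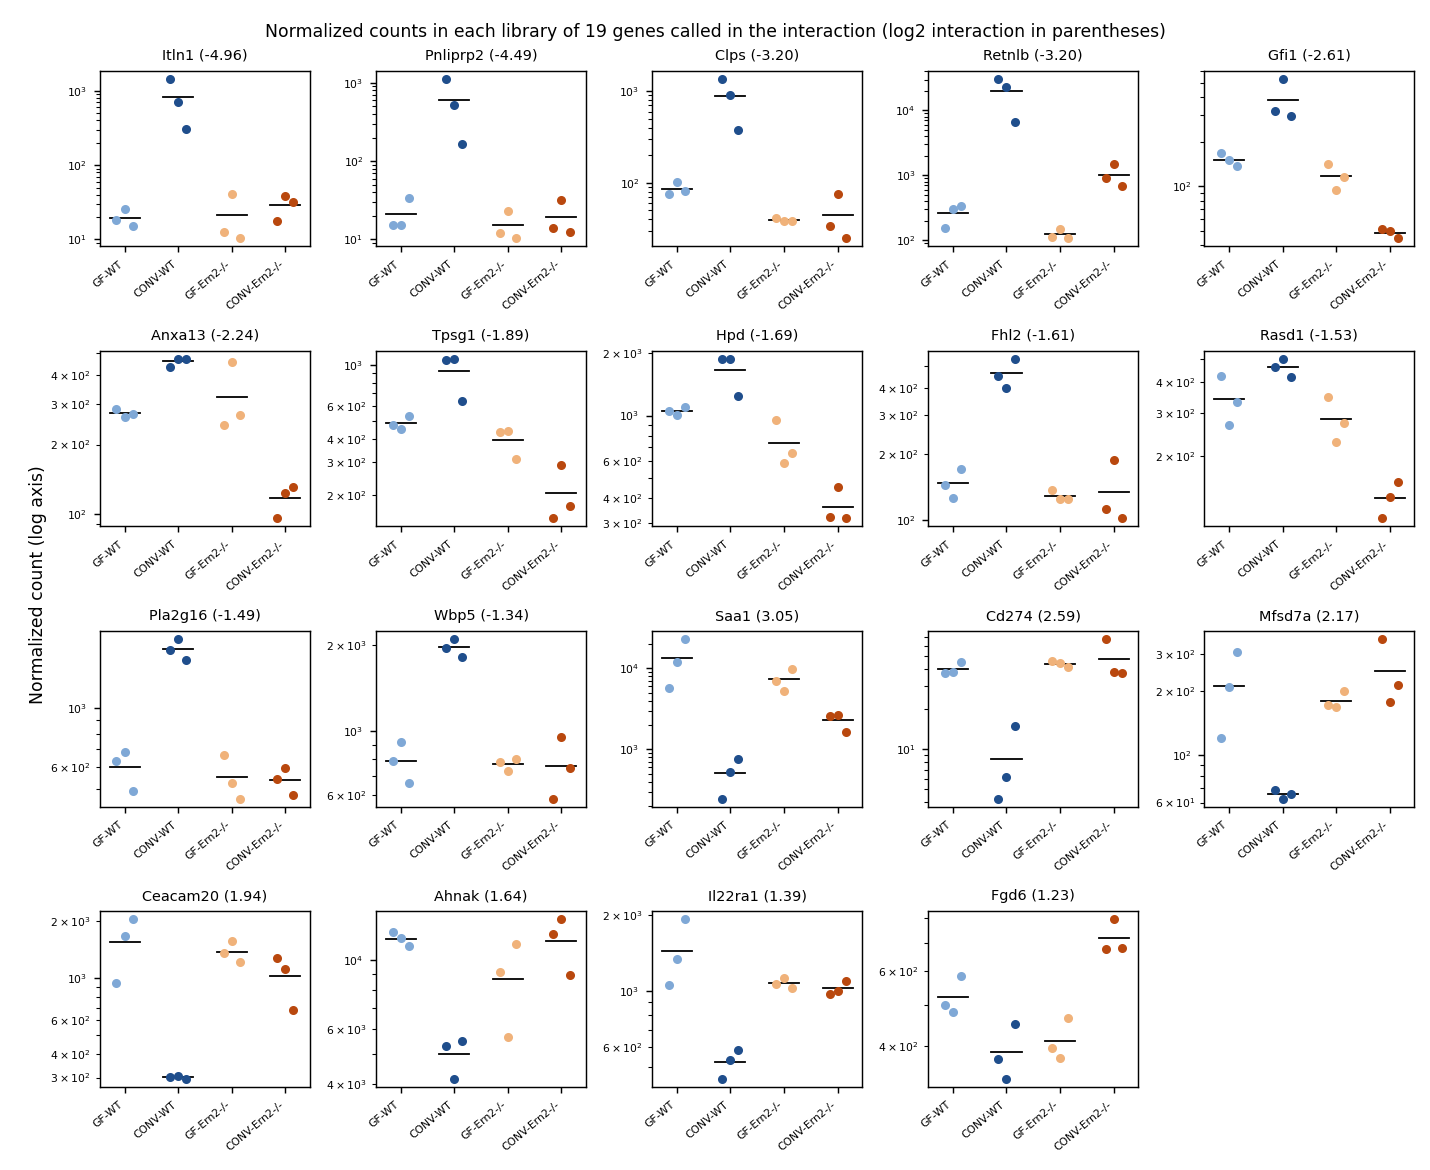
Normalized counts (log axis) of 19 of the 20 called genes in each of the 12 libraries, with the mean of each group as a line and the log2 interaction in parentheses. The first 12 panels hold genes below 0, led by Itln1 (-4.96), and the last 7 those above 0, led by Saa1 (3.05).

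Secreted proteins of goblet cells were among the genes with the largest differences. Itln1, an intelectin that binds sugars on microbial surfaces (chr1:171518123-171535325, GRCm38), had 18, 25.9 and 14.9 normalized counts in GF-WT and 1466, 720.5 and 304 in CONV-WT. Under the Ern2-/- label it had 12.7, 40.5 and 10.3 in GF and 17.8, 37.8 and 32.2 in CONV mice. The 3 CONV-WT libraries were thus far above the other 9, which overlapped. Itln1 rose by 5.41 ± 0.59 (log2 ± SE) in WT, the Ern2-/- value was 0.44 ± 0.63, and the interaction was -4.96 ± 0.86 (adjusted p = 4.03e-05).

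Retnlb, which encodes the antimicrobial goblet cell protein RELMβ (chr16:48816856-48818892), had 155, 296 and 337 counts in GF-WT and 30982, 22632 and 6749 in CONV-WT. It had 111, 150.2 and 106 counts in GF-Ern2-/- and 914, 1468 and 676 in CONV-Ern2-/-. CONV libraries were above GF libraries under both labels, without overlap. Retnlb rose in both, by 6.26 ± 0.49 in WT and by 3.06 ± 0.49 under the Ern2-/- label, so its interaction of -3.20 ± 0.69 (adjusted p = 0.0043) was a smaller rise, not an absent one.

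Pnliprp2 and Clps encode proteins best known from pancreatic juice, a lipase that acts on galactolipids and the colipase that anchors lipase to fat. Pnliprp2 had 15.2, 15.1 and 33.6 counts in GF-WT, 1133, 524 and 166 in CONV-WT, 12.1, 23.4 and 10.3 in GF-Ern2-/-, and 14, 31.9 and 12.4 in CONV-Ern2-/-. Clps had 74.7, 101 and 81.5 counts in GF-WT, 1375, 919.8 and 381 in CONV-WT, 40.9, 38.7 and 38.6 in GF-Ern2-/-, and 33.6, 75.7 and 24.8 in CONV-Ern2-/-. Both were high in CONV-WT alone, with replicate 1 the highest and replicate 3 the lowest of the group. Pnliprp2 rose by 4.83 ± 0.62 in WT (interaction -4.49 ± 0.92, adjusted p = 0.00169) and Clps by 3.38 ± 0.44 (interaction -3.20 ± 0.66, adjusted p = 0.00169), while their Ern2-/- values were 0.34 ± 0.68 and 0.18 ± 0.48. In GF mice the Clps counts of both labels did not overlap, although that difference was not called. The defining acinar genes Pnlip, Amy2a5 and Cpa1 had 0 counts in all 12 libraries, and 11 of the 15 acinar genes did not reach 10 normalized counts in any library. Apart from Clps itself, the highest was Cela1, an elastase, which ran from 703 to 6281 and fell by 1.54 ± 0.42 in WT and fell by 2.40 ± 0.42 under the Ern2-/- label.

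Smaller rises of the same form were measured in Pla2g16, a phospholipase and acyltransferase, Wbp5, an X-linked member of the TCEAL family, and Fhl2, a LIM domain scaffold protein. Pla2g16 had 631, 684 and 489.7 counts in GF-WT and 1640.5, 1802 and 1499.6 in CONV-WT. It had 669, 525 and 459 in GF-Ern2-/- and 543, 597 and 473 in CONV-Ern2-/-. Replicates were close here, including CONV-WT replicate 3, and the interaction was -1.49 ± 0.29 (adjusted p = 0.000489). Wbp5 ran from 660.1 to 917 in GF-WT, from 1825 to 2103 in CONV-WT and from 583 to 954 over the 6 libraries labelled Ern2-/- (interaction -1.34 ± 0.29, adjusted p = 0.0043, or 0.013 with the sex of each library as a further term). Fhl2 had 454, 399 and 542 counts in CONV-WT and at most 187 in any other library (interaction -1.61 ± 0.35, adjusted p = 0.00432). The 3 genes rose in WT by 1.45, 1.31 and 1.66, with Ern2-/- values of -0.03, -0.02 and 0.04.

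In 5 genes below 0 the WT value was positive and the Ern2-/- value negative, each larger than its standard error, and both passed the test in Gfi1 alone. Gfi1 is a zinc finger repressor of the secretory lineage that acts downstream of ATOH1 (chr5:107716655-107725805). Gfi1 had 167, 149.5 and 138 counts in GF-WT and 321, 532 and 299 in CONV-WT, but 142, 94.4 and 115 in GF-Ern2-/- and 51.4, 49.8 and 44.6 in CONV-Ern2-/-. All CONV-WT libraries were above all GF-WT libraries, and all CONV-Ern2-/- libraries below all GF-Ern2-/- libraries. Gfi1 rose by 1.35 ± 0.27 in WT (adjusted p = 2.59e-05) and fell by 1.26 ± 0.31 under the Ern2-/- label (adjusted p = 0.00204), which gave an interaction of -2.61 ± 0.41 (adjusted p = 2.95e-06).

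Anxa13, an annexin of intestinal epithelium, had 287, 264 and 271 counts in GF-WT, 436, 473 and 473 in CONV-WT, 243, 459 and 269.9 in GF-Ern2-/-, and 95.3, 123 and 131 in CONV-Ern2-/-. It fell by 1.49 ± 0.27 under the Ern2-/- label (adjusted p = 5.52e-06), and its WT value of 0.75 ± 0.25 missed the threshold (adjusted p = 0.0227). The high GF-Ern2-/- value was that of replicate 2, and the interaction was -2.24 ± 0.37 (adjusted p = 7.18e-06) and ranged from -2.41 to -1.92 with 1 library left out.

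Hpd, an enzyme of tyrosine breakdown, had 1046, 1002 and 1094 counts in GF-WT and 1872, 1884 and 1243 in CONV-WT. It had 949, 588 and 659 in GF-Ern2-/- and 321, 448 and 317 in CONV-Ern2-/-, a fall by 1.02 ± 0.25 (adjusted p = 0.00224). Rasd1, a small GTPase of the Ras family, also fell by 1.10 ± 0.25 under the Ern2-/- label (adjusted p = 0.00081), from 348, 228 and 274 to 111, 135 and 156. Tpsg1, a membrane-anchored serine protease, had 476, 450.4 and 532 counts in GF-WT, 1053, 1075 and 636 in CONV-WT, 434, 442 and 312 in GF-Ern2-/- and 149.5, 291 and 173 in CONV-Ern2-/-. The WT values of Hpd (0.67 ± 0.25), Tpsg1 (0.92 ± 0.29) and Rasd1 (0.43 ± 0.24) did not pass the test, nor did the Ern2-/- value of Tpsg1 (-0.96 ± 0.30). Their interactions were -1.69 ± 0.35, -1.89 ± 0.42 and -1.53 ± 0.35 (adjusted p = 0.00241, 0.00545 and 0.00719).

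The 7 genes above 0 were mostly high in GF mice of both labels and fell with microbes in WT. Saa1, an acute phase apolipoprotein (chr7:46740497-46743181), had 5762, 11798 and 23030.3 counts in GF-WT and 247, 533 and 751 in CONV-WT. It had 7066, 5214 and 9793 in GF-Ern2-/- and 2611, 2651 and 1619 in CONV-Ern2-/-. GF and CONV libraries did not overlap under either label, and the spread was widest in GF-WT. Saa1 fell by 4.73 ± 0.49 in WT, and its Ern2-/- value of -1.68 ± 0.49 missed the threshold (adjusted p = 0.0138), so the interaction was 3.05 ± 0.70 (adjusted p = 0.00719). Saa1 is similar in sequence to Saa2, which had an interaction of 2.33 ± 0.91 (adjusted p = 0.309), and reads of both may have been split between them.

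Il22ra1, the IL-22 receptor subunit of epithelial cells, had 1051, 1342 and 1926 counts in GF-WT and 448, 532 and 585 in CONV-WT. The 6 libraries labelled Ern2-/- lay between 973 and 1124 whatever the microbial state. Il22ra1 fell by 1.47 ± 0.22 in WT, with an Ern2-/- value of -0.07 ± 0.22 and an interaction of 1.39 ± 0.32 (adjusted p = 0.00719). Cd274, which encodes the checkpoint ligand PD-L1, was low, with 37.4, 37.9 and 45.4 counts in GF-WT, 4.24, 6.17 and 14.8 in CONV-WT, 45.6, 44.1 and 41.4 in GF-Ern2-/- and 67.3, 37.8 and 37.1 in CONV-Ern2-/-. It fell by 2.42 ± 0.46 in WT (interaction 2.59 ± 0.59, adjusted p = 0.00719). Over 26 immune cell markers the summed normalized count was 131 to 217 in GF-WT, 207 to 422 in CONV-WT, 169 to 302 in GF-Ern2-/- and 239 to 414 in CONV-Ern2-/-. Ptprc, the pan-leukocyte antigen, made up a large part of it, with medians of 37.9, 216, 90.8 and 141 in the same order of groups, and 0 of 18 tested markers rose in WT, beside 4.76% of all genes. The part of such cells in the Cd274 value was not tested.

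Ceacam20, an adhesion protein of the brush border, had 942, 1669.8 and 2056 counts in GF-WT, 301, 306 and 296 in CONV-WT, 1363, 1576 and 1215 in GF-Ern2-/- and 1281, 1121 and 679 in CONV-Ern2-/-. It fell by 2.37 ± 0.31 in WT, and its interaction was 1.94 ± 0.44 (adjusted p = 0.00672). Mfsd7a, a membrane transport protein, fell from 121, 209 and 308 to 68.7, 62.6 and 65.7 in WT and ran from 168 to 353 under the Ern2-/- label (interaction 2.17 ± 0.51, adjusted p = 0.00977). Ahnak, a very large scaffold protein, had 12309, 11836 and 11101 counts in GF-WT and 5306, 4149 and 5509 in CONV-WT, a fall by 1.24 ± 0.26, while its Ern2-/- libraries ran from 5677 to 13573 (interaction 1.64 ± 0.37, adjusted p = 0.00719). With the sex of each library as a further term, 3 genes above 0 were called, Fgd6 and Saa1 among them. Neither Ceacam20 nor Ahnak was called, and at most 1 of Il22ra1, Cd274 and Mfsd7a was. Fgd6, an exchange factor for small GTPases, was the 1 gene above 0 that rose under the Ern2-/- label, by 0.79 ± 0.17 (adjusted p = 0.000292), from 397, 376 and 466 to 676, 795 and 679. In WT it had 500.3, 481 and 584 counts in GF and 374, 336 and 452 in CONV mice (-0.44 ± 0.17, adjusted p = 0.0619), and the interaction was 1.23 ± 0.24 (adjusted p = 0.000999).

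The promoters of these genes were read from a RefSeq table of GRCm38.p6, the assembly that mm10 names. Of the 20 genes 15 had an entry, with 19 windows in all that run from 250 bases before to 50 bases after a transcript start, and the 2 windows of Pla2g16 overlap. Searched on both strands, the XBP1 core ACGTG was in 2 of 12 windows of genes below 0 and in 2 of 7 of genes above 0, beside 19.6% of all 32851 windows. CAGCTG, an E-box that basic helix-loop-helix factors such as ATOH1 can bind, was in 0 of 12 and 2 of 7 windows, beside 16.3%. The STAT-type TTCNNNGAA was in 0 of 12 and 0 of 7 (8.3% of all), and TATAAA in 1 of 12 and 0 of 7 (13.6% of all). No motif overlapped another in these windows. The 250 bases before the start of Itln1, the largest interaction among the 20 genes, held none of the 4. Those of Ceacam20 and Il22ra1, both of which fell in WT, held the E-box that is printed in capitals, which starts 34 bases before the start in Ceacam20 and 28 bases before it in Il22ra1. They read 5′ to 3′ on the gene's strand, minus for Itln1 at chr1:171535295-171535544, plus for Ceacam20 at chr7:19965162-19965411 and plus for Il22ra1 at chr4:135727909-135728158.
Itln1: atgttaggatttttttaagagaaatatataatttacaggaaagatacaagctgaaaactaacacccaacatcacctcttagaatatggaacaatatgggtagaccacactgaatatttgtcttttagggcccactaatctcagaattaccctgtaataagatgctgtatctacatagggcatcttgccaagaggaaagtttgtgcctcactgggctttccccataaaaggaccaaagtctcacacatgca
Ceacam20: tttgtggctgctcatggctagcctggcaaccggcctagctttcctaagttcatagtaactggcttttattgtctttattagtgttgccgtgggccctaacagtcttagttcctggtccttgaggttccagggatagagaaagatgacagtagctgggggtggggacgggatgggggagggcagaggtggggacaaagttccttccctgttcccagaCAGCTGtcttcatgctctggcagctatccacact
Il22ra1: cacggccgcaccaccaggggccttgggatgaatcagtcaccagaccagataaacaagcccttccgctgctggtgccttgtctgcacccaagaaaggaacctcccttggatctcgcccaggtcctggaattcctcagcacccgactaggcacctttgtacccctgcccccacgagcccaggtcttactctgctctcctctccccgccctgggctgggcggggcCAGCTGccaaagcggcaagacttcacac

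The Y-linked genes followed the sex pattern of the libraries. Uty had 0 counts in all GF-WT libraries, 229, 1.76 and 0 in CONV-WT, 320.2, 398 and 0 in GF-Ern2-/- and 210.2, 223 and 218 in CONV-Ern2-/-. Kdm5d and Ddx3y were at 0 in the same GF-WT libraries, and fold changes against a group at 0 are not given. With the sex of each library as a further term, DESeq2 called 12 genes, 11 of which were among the 20. The rest of the 20 were no longer called, and all 20 kept their sign in these same libraries.

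The genotype labels were also set against each other within each microbial state. The CONV groups did not overlap for 20 of 20 genes (21.2% of all genes tested), whereas the GF groups did not overlap for 5 (6.19%), which were Fgd6, Clps, Hpd, Retnlb and Tpsg1. CONV-Ern2-/- minus CONV-WT passed the test for all 20 (3.05% of all 13701 genes) and GF-Ern2-/- minus GF-WT for 0 (0.0338% of all 17764). These comparisons use the libraries of the interaction, and the genes were chosen by it, so nothing is read from them. The 6 COLONIZED libraries were not used by it and gave the genotype difference anew. In that fit 164 of 11960 genes (1.37%) were called, of which 6 were among the 20, and edgeR called 1 of 12722 genes, none of them among the 20. The 6 were Itln1, Pnliprp2, Clps, Anxa13, Pla2g16 and Retnlb, all lower under the Ern2-/- label. The groups did not overlap for 14 of the 20 genes (30.4% of all genes tested). The sign was that of the interaction for 19 of 20, beside 58.2% of the 11944 genes tested in both. The 20 were chosen for their interactions, so the share of all genes is not a like comparison. A COLONIZED value is a genotype difference, not an interaction, and holds any difference also present in GF mice.

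Itln1 had 363, 183 and 356 counts in COLONIZED-WT and 40.5, 13.5 and 34.7 in COLONIZED-Ern2-/-, a difference of -3.34 ± 0.37 (adjusted p = 1.2e-15). Pnliprp2 had 451, 103.6 and 298 beside 18.5, 16.9 and 9.92 (-4.22 ± 0.48, adjusted p = 3.18e-15), and Clps 499, 351 and 481 beside 116, 39.5 and 84.3 (-2.46 ± 0.32, adjusted p = 8.47e-12). Both lipid-digesting proteins were thus lower under the Ern2-/- label in these other mice, without overlap. Retnlb had 11735, 5549.9 and 10201 counts beside 597, 94.8 and 564 (-4.45 ± 0.78, adjusted p = 5.73e-06), Anxa13 536, 517 and 525 beside 299.9, 132 and 226 (-1.26 ± 0.26, adjusted p = 0.000179), and Pla2g16 1779, 1685 and 1788 beside 1159, 768 and 924 (-0.88 ± 0.17, adjusted p = 3.24e-05). Gfi1 did not overlap either, with 232, 429 and 300.2 beside 184, 122 and 191, but missed the threshold (-0.95 ± 0.27, adjusted p = 0.018). Saa1 was the exception in sign, with 369.5, 943 and 680.2 beside 419.6, 568 and 420.4 (-0.50 ± 0.29, adjusted p = 0.29). Normalized Ern2 counts were 2890.1 to 3366 in COLONIZED-WT and 1659.8 to 3171 in COLONIZED-Ern2-/-.

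**Figure D3:**
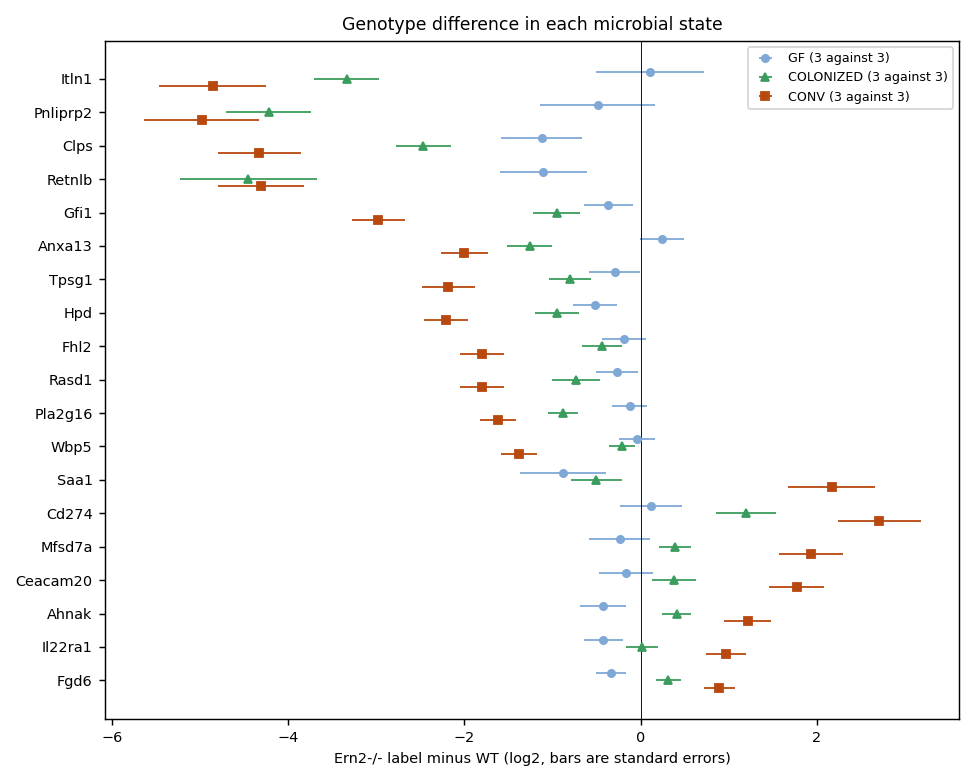
Ern2-/- label minus WT (log2, with standard errors, 3 libraries against 3) for 19 of the 20 called genes in GF, COLONIZED and CONV mice. In CONV mice the values reach -4.98 (Pnliprp2) and 2.71 (Cd274), and in COLONIZED mice each gene drawn but Saa1 has the sign of the interaction.

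The wider gene groups were described by their counts and medians, since single calls were few. In bulk RNA, fewer cells of a type and less RNA per cell cannot be told apart. Of 399 goblet cell signature genes tested, 3 were called below 0 (Gfi1, Hpd, Tpsg1) and 1 above (Mfsd7a), beside 0.123% and 0.0537% of all genes, and 322 (80.7%) had a value below 0, beside 51.9% of all genes. Their median was -0.48, from a WT median of 0.19 (38 rose and 15 fell of 400, beside 4.76% and 4.37% of all genes) and an Ern2-/- median of -0.25 (5 rose and 25 fell of 400, beside 1.44% and 2.68%). Without CONV-WT replicate 3, calls over all 12976 genes tested rose to 289 (2.23%), 149 below 0 (1.15%) and 140 above (1.08%), and those among goblet cell genes to 43 below 0 and 2 above, with a median of -0.63. Without CONV-WT replicate 1 the goblet cell median was -0.31 with 1 gene called, and 1 was called in 7 of the 12 fits that left out 1 library. The study took its signatures from earlier published work by Haber et al., which it cites for goblet cells of the small intestine. How well these signatures describe cells of colon crypts was not tested.

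Among 14 secretory lineage transcription factors Gfi1 alone was called, below 0 (7.14%, beside 0.123% of all genes). The median was -1.01, or -0.42 without both GF-Ern2-/- libraries whose Ern2 counts were as in WT. That fit left only replicate 2 in GF-Ern2-/-, which had the highest sum of small intestine genes. Atoh1, the master regulator of the lineage, had 1208, 990.4 and 1276 counts in GF-WT, 1409, 1653 and 1112 in CONV-WT, 1051, 739 and 825 in GF-Ern2-/- and 384, 554 and 483 in CONV-Ern2-/-. Its interaction of -1.15 ± 0.32 was not called (adjusted p = 0.0551), and was called only without CONV-WT replicate 3 (adjusted p = 0.00251). Spdef, which drives goblet cell maturation, had values of 1.80 ± 0.37 in WT, where it rose, and 0.45 ± 0.37 under the Ern2-/- label (interaction -1.35 ± 0.52, adjusted p = 0.306). Bhlha15 (MIST1), a factor of professional secretory cells, rose under both, by 3.67 ± 0.41 and 1.60 ± 0.42 (interaction -2.07 ± 0.59, adjusted p = 0.0699). Foxa3, another goblet cell factor, rose by 1.16 ± 0.26 in WT with 0.07 ± 0.27 under the Ern2-/- label (interaction -1.09 ± 0.38, adjusted p = 0.204).

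Of 17 secreted goblet cell products, 2 were called below 0 (Itln1, Retnlb), beside 0.123% of all genes, and the median was -1.60, or -0.83 with the library total as covariate and -0.87 with limma-voom. Spink4, a goblet cell protease inhibitor, had 3539.7, 3591 and 1496 counts in GF-WT, 37146, 42043 and 13265 in CONV-WT, 3368, 4669.8 and 2070.2 in GF-Ern2-/- and 4872, 6007 and 7513 in CONV-Ern2-/-. It rose by 3.42 ± 0.46 in WT, and its interaction was -2.56 ± 0.65 (adjusted p = 0.0268). Muc2, the main gel-forming mucin, had an interaction of -1.60 ± 0.87 (adjusted p = 0.634). It had 44155, 46790.2 and 45198 counts in GF-WT, 35127, 8749 and 23273 in GF-Ern2-/- and 29432, 18868 and 16537 in CONV-Ern2-/-. Without both GF-Ern2-/- libraries whose Ern2 counts were as in WT, the Muc2 interaction was -0.23. That value rests on replicate 2, with 8749 counts, as the only GF-Ern2-/- library, which also had the highest sum of small intestine genes. CONV-WT replicate 3 lay below all GF-WT libraries in Muc2 as in Fcgbp, Clca3 and Agr2, and without that replicate the adjusted p was 0.0131 for the Muc2 interaction and 1.37e-05 for Agr2, a goblet cell disulfide isomerase. Ang4, an antimicrobial ribonuclease, rose under both labels, by 5.70 ± 0.97 and 4.00 ± 0.97 (interaction adjusted p = 0.819). Zg16 and Tff3, a lectin and a trefoil peptide of mucus, had like values under both labels, in that Zg16 fell by 3.59 ± 0.49 in WT and fell by 2.91 ± 0.49 under the Ern2-/- label and Tff3 fell by 1.59 ± 0.45 and fell by 1.76 ± 0.45, with interactions of 0.68 ± 0.69 and -0.17 ± 0.64.

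Genes of the secretory route had medians below 0 but no called member. The median was -0.52 for 32 genes of ER translocation and signal peptide processing, 30 of which were negative, -0.52 for 36 mucin O-glycosylation enzymes, -0.37 for 38 COPI and COPII vesicle genes and -0.25 for 37 ER chaperone and degradation genes. The chaperone median was 0.03 without CONV-WT replicate 1. The median was also below 0, at -0.50, for 41 secretory genes of a list that the study had derived by raising ERN2 in a human cell line, and -0.08 for 24 ATF4 and CHOP stress genes. Xbp1 itself had an interaction of -0.57 ± 0.39 (adjusted p = 0.745), Copz2, a COPI subunit, -1.64 ± 0.55 (adjusted p = 0.176), Hspa5 (BiP) -0.67 ± 0.68 (adjusted p = 0.877), and Ern1 0.04 ± 0.65 (adjusted p = 0.996). Derl3, of ER-associated degradation, went the other way in value (0.98 ± 0.78, adjusted p = 0.81) and rose under the Ern2-/- label from 26.8, 10.8 and 22.6 to 118, 135 and 119 counts. Without CONV-WT replicate 3, 5 genes of ER translocation, 5 chaperone and degradation genes, 6 vesicle genes and 3 O-glycosylation enzymes were called, all below 0, beside the 1.15% of all genes called below 0 in that fit.

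Absorptive cell genes had medians above 0. Of 451 enterocyte signature genes 2 were called (Ceacam20, Ahnak), both above 0. That is 0.443% beside 0.0537% of all genes called above 0. With the sex of each library as a further term 0 were called, and 0 to 19 with 1 library left out. The median was 0.38. It was 0.079 without both GF-Ern2-/- libraries whose Ern2 counts were as in WT, with 200 of 451 values below 0. That fit left replicate 2 as the only GF-Ern2-/- library, the one with the highest sum of small intestine genes (23691.5). Its sum of colon epithelium markers was 593421, beside 220355 and 234688 in replicates 1 and 3. The part of that library in the lower median was not tested. Of the enterocyte genes 97 of 462 fell in WT and 37 of 461 under the Ern2-/- label, beside 4.37% and 2.68% of all genes. The median was 0.94 for 33 surface colonocyte transport genes, of which 17 fell in WT (median -1.89) and 5 under the Ern2-/- label (median -0.50), against the same shares of all genes. Car4, a carbonic anhydrase of the surface epithelium, had 3319, 6173 and 12934 counts in GF-WT, 583, 837 and 1202 in CONV-WT, 4538, 4193 and 5027 in GF-Ern2-/- and 4246, 2609 and 2622 in CONV-Ern2-/- (interaction 2.56 ± 0.61, adjusted p = 0.0132). The median was 0.56 for 29 brush border genes and 0.62 for 15 antigen presentation genes, with no member called. Proliferation genes had a median of -0.65 with 24 of 25 negative, 13 having risen in WT (4.76% of all genes) and 0 under the Ern2-/- label (1.44% of all genes), and none called in the interaction. Stem cell genes stood at -0.32, enteroendocrine genes at 0.17 and tuft cell genes at 0.00. Rasd1 was the 1 call among 125 enteroendocrine genes (0.8%), and Pla2g16 the 1 call among 471 tuft cell genes (0.212%). Both were below 0, beside 0.123% of all genes.

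**Figure D4:**
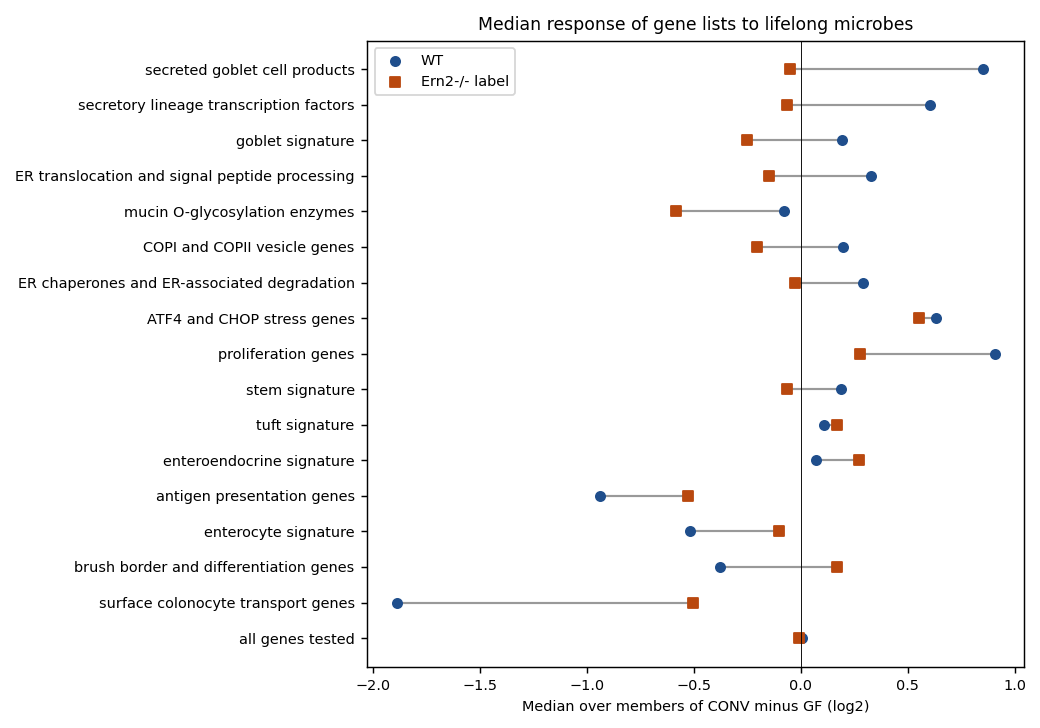
Median over the tested members of each gene list of CONV minus GF (log2) in WT (circles) and under the Ern2-/- label (squares). Secreted goblet cell products lie at 0.85 and -0.05, surface colonocyte transport genes at -1.89 and -0.50, and all genes tested near 0 under both labels.

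Just outside the threshold, 47 genes had an adjusted p from 0.01 to 0.05, 36 below 0 and 11 above. A few, named after their values were seen, had larger interactions than most called genes. Pla2g4c, a cytosolic phospholipase, had 15.2, 17.7 and 23.6 counts in GF-WT, 7535, 2282 and 3213 in CONV-WT, 22.8, 18 and 78.1 in GF-Ern2-/- and 214, 1019.7 and 136 in CONV-Ern2-/-, so that it rose under both labels (interaction -4.32 ± 1.02, adjusted p = 0.0114). Mptx1, a pentraxin of the mucosa, had 1328, 8379 and 478 counts in CONV-Ern2-/- and at least 13871 in every other library (interaction -5.04 ± 1.34, adjusted p = 0.0376). Meg3, a noncoding RNA of the imprinted Dlk1-Dio3 region, had at most 3.73 counts in GF-WT, 1158, 2679.9 and 660.3 in CONV-WT, at most 5.64 in GF-Ern2-/- and 8.41, 75.7 and 22.3 in CONV-Ern2-/- (interaction -6.55 ± 1.56, adjusted p = 0.0124). Its neighbour Rian had 470.2, 747 and 102 counts in CONV-WT and at most 7.43 elsewhere (adjusted p = 0.168). The summed count of 18 mesenchymal and muscle markers was 239, 243 and 623 in CONV-WT and 227 to 592 in the other groups. Pdgfrb, a pericyte and fibroblast receptor, made up a large part of it, with a median of 325 in GF-WT and 118 in CONV-WT, and other markers ran the opposite way. Col3a1, a fibrillar collagen, had medians of 0 in GF-WT, 7.05 in CONV-WT, 2.82 in GF-Ern2-/- and 37.8 in CONV-Ern2-/-, and Acta2, smooth muscle actin, had 1.38, 15.0, 5.40 and 11.9. Of 16 markers tested, 2 rose and 1 fell in WT (4.76% and 4.37% of all genes). Under the Ern2-/- label 0 rose and 1 fell (1.44% and 2.68% of all genes). The median CONV minus GF of these markers was 3.13 in WT and 1.84 under the Ern2-/- label, beside 0.01 and -0.01 over all genes. The part of these markers in the Meg3 value was not tested. Rn45s, a ribosomal RNA precursor, was lower in GF-Ern2-/- (73418 to 115207) than in the other 9 libraries (223441 to 514961) (interaction 1.76 ± 0.45, adjusted p = 0.0292).

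The number of calls depended strongly on single libraries. With 1 library left out it was 3 without CONV-WT replicate 1, 8 without replicate 2 and 289 without replicate 3. It was 8, 57 and 9 without CONV-Ern2-/- replicates 1, 2 and 3, 6, 28 and 19 without GF-Ern2-/- replicates 1, 2 and 3, and 23, 10 and 11 without GF-WT replicates 1, 2 and 3. Without CONV-WT replicate 3 all 20 genes were among the 289 calls. Gfi1, Anxa13 and Itln1 were called in each of the 12 fits, Pla2g16 in 10, Fgd6 in 8, Pnliprp2 in 7 and Clps in 6. Ahnak, Ceacam20, Hpd and Wbp5 were called in 4, Retnlb, Fhl2, Tpsg1, Il22ra1, Rasd1, Saa1 and Mfsd7a in 3, and Cd274 in 2. Every one of the 20 kept its sign in all 12 fits, which reuse the libraries that chose these genes, so nothing is read from it. Without both GF-Ern2-/- libraries whose Ern2 counts were as in WT, 177 genes were called, 10 of them among the 20, and this arm then held 1 library, which was assumed to vary like the other groups.

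**Figure D5:**
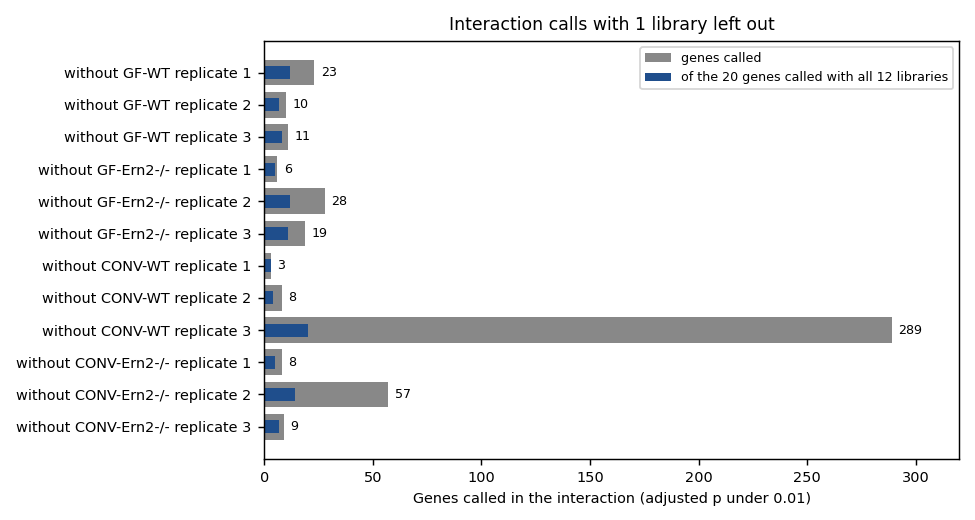
Number of genes called in the interaction when the library named on the y axis was left out (grey), and how many of the 20 genes were among them (blue). The bar without CONV-WT replicate 3 reaches 289, and the others run from 3 to 57.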

How the data were processed

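RNA-Seq of colon crypt epithelial cells was analysed in 12 libraries, 3 per group. The deposited values were raw read counts for each gene and library, without scaling. Per the study's methods and the submitters' processing notes, stranded single-end libraries were aligned with STAR to mm10 (GRCm38), and DESeq2 was used. The strand setting of counting was not given in the sources used here, so overlapping genes may share reads.

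One DESeq2 1.42.0 fit in R 4.3.3 held genotype, microbial state and their interaction, with Wald tests, default size factors and filters, no shrinkage, and Benjamini-Hochberg adjustment over all genes tested (called at adjusted p under 0.01, as in the study). The outlier filter left 27 genes without a p, and low means left 4737 without an adjusted p. The edgeR 4.0.16 quasi-likelihood test and limma 3.58.1 voom were alternatives, as were other size factors, filters, covariates and left-out libraries. Totals of 5865620 to 23154500 counts set the precision of low genes. All pairs of replicates differed by more than counting noise. The fit was tested on simulated data, but the outcome is not reported here and is not used as support for any call. Sequences came from RefSeq tables of GRCm38.p6, in which all 20 genes matched, 2 by an older symbol. Members, gene lists and tests were chosen with earlier results of these data known. Named genes were a panel, the 10 largest calls each way with a mean count of at least 50, the 10 smallest adjusted p, and called list members. Cd274 had a lower mean and was named after its values were seen. Of the called genes, 1 is counted but not reported here.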

Additional observations from a re-analysis of the deposited data

Results flagged for a closer look

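By the DESeq2 interaction test over 13027 genes, 23 genes were called as differing between the genotype labels in CONV minus GF. The quasi-likelihood test of edgeR and limma-voom called 0, and the values here are those of DESeq2. For 12 of the genes below 0 other than the Y-linked ones, the adjusted p was 2.95e-06 for Gfi1, 7.18e-06 for Anxa13, 4.03e-05 for Itln1, 0.000489 for Pla2g16, 0.00169 for Clps, 0.00169 for Pnliprp2, 0.00241 for Hpd, 0.0043 for Retnlb, 0.0043 for the X-linked Wbp5, 0.00432 for Fhl2, 0.00545 for Tpsg1 and 0.00719 for Rasd1. For the 7 above 0 it was 0.000999 for Fgd6, 0.00672 for Ceacam20, 0.00719 for Ahnak, 0.00719 for Cd274, 0.00719 for Il22ra1, 0.00719 for Saa1 and 0.00977 for Mfsd7a. The Y-linked genes Uty, Kdm5d and Ddx3y had 8.11e-05, 0.0043 and 0.00432, with 0, 1, 2 and 3 libraries of male pattern in GF-WT, CONV-WT, GF-Ern2-/- and CONV-Ern2-/-.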

How the results depend on the processing

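All 20 genes other than the Y-linked ones kept their sign under every alternative tried. The alternatives reuse the libraries that chose these genes, so this is no support for the calls. Most counts of calls moved. The quasi-likelihood test of edgeR gave 0 interaction calls (0 above 0 and 0 below), 320 calls for CONV minus GF in WT and 36 under the Ern2-/- label, and 0 called members of the goblet, enterocyte and secreted product lists, and limma-voom gave 0 throughout with 378 and 19 for the responses. One fit of all 18 libraries gave 58 calls (18 above 0, 40 below), 2057 and 937 for the responses, 4 enterocyte genes and 1 secreted product. With sex as a covariate there were 12 calls (3 above, 9 below) and 0 enterocyte genes, and with the library total 45 calls (24 above), 757 and 166 for the responses and 7 enterocyte genes. At an adjusted p under 0.05 there were 70 calls (18 above, 52 below), 2405 and 1200 for the responses, 8 goblet and 4 enterocyte genes. Without both GF-Ern2-/- libraries with Ern2 as in WT, an alternative chosen after seeing the data, there were 177 calls (147 above, 30 below) and 5 enterocyte genes. Whether replicate numbers pair the libraries could not be told. Of 18 same-numbered pairs, 8 had a correlation over 0.1 (range -0.28 to 0.63 over 10721 genes). Likewise 6 of 12 libraries correlated best with their own number. No reference value was set for either count. A replicate block gave 41 calls (33 below 0), of which only 16 were among the 20 genes, with 7 goblet genes and a Reg3b interaction of 1.21.

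With 1 library left out, calls ran from 3 to 289 (0 to 140 above, 3 to 149 below), from 696 to 1676 for the WT response and from 235 to 957 for the Ern2-/- response. Called goblet genes ran from 1 to 45, enterocyte genes from 0 to 19 and secreted products from 1 to 5, with medians from -0.63 to -0.31, 0.22 to 0.64 and -2.04 to -1.11. Uncalled genes moved as well, with Hspa5 from -1.13 to -0.19, Derl3 from 0.56 to 1.77 and Zg16 from 0.33 to 1.28, and signs turned in others. Leaving out 1 library moved Ern1 from -0.53 to 0.41, Tff3 from -0.50 to 0.44, Chac1 from -1.32 to 1.02, Trib3 from -0.99 to 1.48, Reg3b from -0.91 to 1.92 and Reg3g from -0.27 to 2.33. With limma-voom Clca1 was 0.22, Tff3 0.038, Chac1 -0.16 and Reg3b 0.78. Without both GF-Ern2-/- libraries whose Ern2 counts were as in WT, Ern2 was 1.57, Clca1 2.85, Chac1 -0.60, Trib3 -0.30 and Reg3g -0.89. Clca1 had a mean of only 49.2 normalized counts. It is not the entry Clca3, which had a mean of 46110 and an interaction of -3.07 ± 1.00. Over 23 alternatives the medians ran from -0.79 to -0.18 for mucin O-glycosylation, -0.92 to -0.34 for ER translocation, -0.62 to 0.03 for chaperones, -0.61 to -0.20 for vesicle genes, -0.43 to -0.08 for stem cell genes, -0.08 to 0.30 for enteroendocrine genes, 0.23 to 0.78 for antigen presentation and 0.35 to 1.08 for brush border genes. The cause of these shifts was not tested. Genes near the smallest mean tested, 4.98 normalized counts, are limited by depth.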
